A study of Castanea mollissima with 6 samples.

Results

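In roots of Castanea mollissima, the Chinese chestnut, 91 genes formed 21 runs of at least 4 consecutive gene IDs in which every gene was shifted at least 2-fold, on the log2(FPKM + 1) scale, in the same direction between r_3m and r_1m roots. They were taken from 33991 gene IDs, of which 20038 had a mean of at least 1 FPKM over the 6 libraries and were tested. FPKM is the number of fragments of a gene, scaled for transcript length and for all fragments mapped in the library. A gene was eligible when both group means were above 0 and below 500 FPKM, its mean over the libraries was at least 1 FPKM, and its log2 difference was at least 1 and below 4 in size. The log2 difference is the log2 of the r_3m mean plus 1 minus the log2 of the r_1m mean plus 1. Eligible genes became members when 4 or more had consecutive ID numbers under one ID prefix, such as Cm12, and shared one direction. The members were thus selected on the r_3m and r_1m values themselves, and differences between the groups are described here without a test.

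RNA was sequenced from 3 r_3m and 3 r_1m root libraries. The labels give both groups as roots and do not spell out the rest of these names, nor any age, treatment, cultivar or growth condition. Nothing in them ties a library to its own plant, so spreads between libraries may be technical. A batch that coincides with the groups cannot be told apart from them. The sequencing-run numbers that open the sample titles are consecutive within each group and form a separate block for each. What this split reflects is not stated. Relative to the deepest library, sequencing depth read from the steps between low FPKM values was 63.9%, 84.4% and 88.8% in r_3m replicates 1, 2 and 3, and 100%, 94.4% and 88.0% in r_1m replicates 1, 2 and 3. The r_3m libraries also varied more than the r_1m libraries. The median SD of log2(FPKM + 1) between the libraries of a group was 0.17 in r_3m and 0.07 in r_1m over the tested genes, and 0.24 in r_3m and 0.08 in r_1m over the 91 members.

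In plant genomes, genes of one family often lie side by side as tandem copies, and several specialised metabolic pathways are encoded in clusters of unrelated enzymes that are expressed together. Neighbouring genes can also share regulatory sequence or a stretch of open chromatin, and transcripts that overlap or are nearly identical can share sequencing reads. The deposited table pairs no ID with a gene name, product or position, and no genome or annotation was used here. Consecutive numbers were read as neighbours in the numbering only. Whether they follow the order of genes along a chromosome was not tested, and neither was sharing of reads between members. The labelled tissue could not be set against root marker genes for the same lack of names. Only 4 members are printed by ID, and the others are given by the prefix of their run and their place in it.

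Most eligible genes stood alone in the numbering. Eligible genes numbered 2206 higher in r_3m (11.0% of the tested genes) and 2902 lower (14.5%). Among the higher ones, 1641 (74.4%) had no eligible neighbour of the same direction, 438 were in pairs and 102 in runs of 3. Among the lower ones, 2134 (73.5%) stood alone, 588 were in pairs and 114 in runs of 3. Longer runs held 25 higher genes, in 5 runs of 4 and 1 run of 5. That count was 49 genes in 12 runs with a pseudocount of 0.1, 9 genes in 2 runs at a minimum mean of 5 FPKM, and 38 genes in 9 runs without r_1m replicate 1. Runs of 4 or more held 66 lower genes, in 10 runs of 4, 4 runs of 5 and 1 run of 6. At a minimum mean of 5 FPKM this count was 40 genes in 9 runs. IDs are numbered without a gap within each of the 13 prefixes, so no missing ID ended a run.

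**Figure D1:**
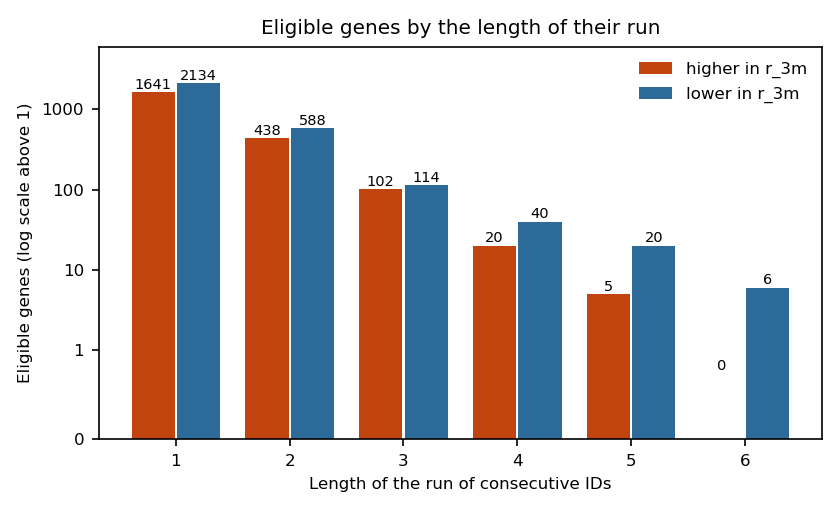
Number of eligible genes (vertical axis, logarithmic above 1) by the length of the run of consecutive IDs they belong to (horizontal axis), for genes higher (left bars) and lower (right bars) in r_3m. The members are the genes in runs of 4 or more: 20 and 5 higher, and 40, 20 and 6 lower.

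Runs were found under 10 of the 13 prefixes. The Cm09 prefix held 4 of them with 17 members, Cm08 and Cm11 held 3 each, Cm01, Cm02, Cm04 and Cm12 held 2 each, and Cm03, Cm05 and Cm06 held 1 each. None was found under Cm00, Cm07 or Cm10, with 1003, 2191 and 2293 IDs. The higher runs each lay under a different prefix. Runs of the same prefix were far apart, with 267 to 2830 IDs from one to the next.

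The groups did not overlap in any member. All 25 genes of the higher runs had every r_3m library above every r_1m library, which held for 37.2% of all tested genes. All 66 genes of the lower runs had every r_3m library below every r_1m library, against 36.7% of the tested genes. In a limma fit over the whole table, 25 and 66 members passed an adjusted p of 0.05 in their direction, against 33.9% of all tested genes called higher and 33.6% called lower. The same contrast chose the members, so nothing is read from these counts. With the r_1m libraries averaged and counted as 1 sample, the fitted differences stay the same by construction, because averaging keeps the r_1m mean. They are therefore no check on the genes printed by ID. Fewer genes were then called over the whole table, and not all lower members passed. The smallest difference among members was 1.04 in size and the largest 3.64. Just outside, 7 genes with a difference of 0.9 to 1 in size would have made or lengthened a run, the closest at -0.99. The lowest mean over the libraries was 1.26 FPKM and the highest group mean 436 FPKM.

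The longest run higher in r_3m was 5 Cm12 genes, and it opened with the member of the largest increase, Cm12G00140.gene. Cm12G00140.gene had 17.3, 17.9 and 18.7 FPKM in r_3m replicates 1, 2 and 3, against 1.73, 1.72 and 2.05 FPKM in r_1m replicates 1, 2 and 3. Its log2 difference was 2.74. The limma estimate, a difference of mean log2 values, was 2.75 with a standard error of 0.10. The libraries of each group lay close together. The next gene in the run averaged 12.0 ± 0.691 FPKM in r_3m and 3.83 ± 0.181 FPKM in r_1m (SD, n = 3 each). The third and the fourth were the strongly expressed members of the run. The third had 63.4, 81.0 and 90.8 FPKM in r_3m, against 21.4, 27.7 and 24.3 FPKM in r_1m. The fourth had 111, 119.9 and 122 FPKM in r_3m, against 32.9, 28.5 and 38.3 FPKM in r_1m. The last gene was back near the level of the second, at 13.0 ± 0.842 FPKM in r_3m and 3.79 ± 0.0709 FPKM in r_1m (SD, n = 3 each). Log2 differences in the run lay between 1.43 and 2.74, and replicate 1 was the lowest r_3m library in all 5 genes. The gene before the run was nearly even between the groups, at 0.05, and the gene after it differed by 0.56.

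The Cm09 run of 4 that was higher in r_3m ended with the most strongly expressed member of the higher runs, Cm09G02224.gene. Cm09G02224.gene had 312, 385 and 372 FPKM in r_3m replicates 1, 2 and 3, against 70.3, 70.9 and 69.8 FPKM in r_1m replicates 1, 2 and 3. Its log2 difference was 2.32 (limma estimate 2.32, standard error 0.09). The genes before it were weaker and kept the direction. The third averaged 36.7 ± 5.59 FPKM in r_3m and 10.9 ± 0.602 FPKM in r_1m (SD, n = 3 each). The second averaged 10.1 ± 1.13 FPKM in r_3m and 1.63 ± 0.281 FPKM in r_1m, and the first 5.48 ± 1.01 FPKM in r_3m and 1.48 ± 0.0436 FPKM in r_1m. All 4 genes were highest in r_3m replicate 2. IDs directly before and after were nearly silent, at means of 0.135 and 0.0200 FPKM over the libraries.

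A Cm05 run and a Cm03 run, of 4 genes each, completed the higher runs described gene by gene. In the Cm05 run the first gene had 152, 146 and 122 FPKM in r_3m, against 38.1, 39.0 and 38.1 FPKM in r_1m. The second and the third were low in r_1m. The third averaged 19.4 ± 2.12 FPKM in r_3m and 2.14 ± 0.656 FPKM in r_1m (SD, n = 3 each), a log2 difference of 2.70, the largest of the run. The second averaged 11.6 ± 1.37 FPKM in r_3m and 1.71 ± 0.715 FPKM in r_1m. The fourth had the smallest difference of the run, 1.18, at 46.8 ± 11.8 FPKM in r_3m and 20.1 ± 0.488 FPKM in r_1m. The next ID was strongly expressed in both groups, with means of 495 FPKM in r_3m and 391 FPKM in r_1m, and a difference of 0.34.

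In the Cm03 run the second gene was close to silent in r_1m. It had 7.39, 5.18 and 7.08 FPKM in r_3m, against 0.44, 0.37 and 0.50 FPKM in r_1m, a log2 difference of 2.39. The third averaged 28.0 ± 8.42 FPKM in r_3m and 5.36 ± 1.48 FPKM in r_1m, and the fourth 15.0 ± 4.28 FPKM in r_3m and 3.03 ± 0.136 FPKM in r_1m (SD, n = 3 each). Both were highest in r_3m replicate 3, as was the first, at 9.91 ± 0.786 FPKM in r_3m and 3.42 ± 0.0755 FPKM in r_1m. The gene just before this run was shifted the other way, by -0.98, with means of 23.6 FPKM in r_3m and 47.5 FPKM in r_1m.

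**Figure D2:**
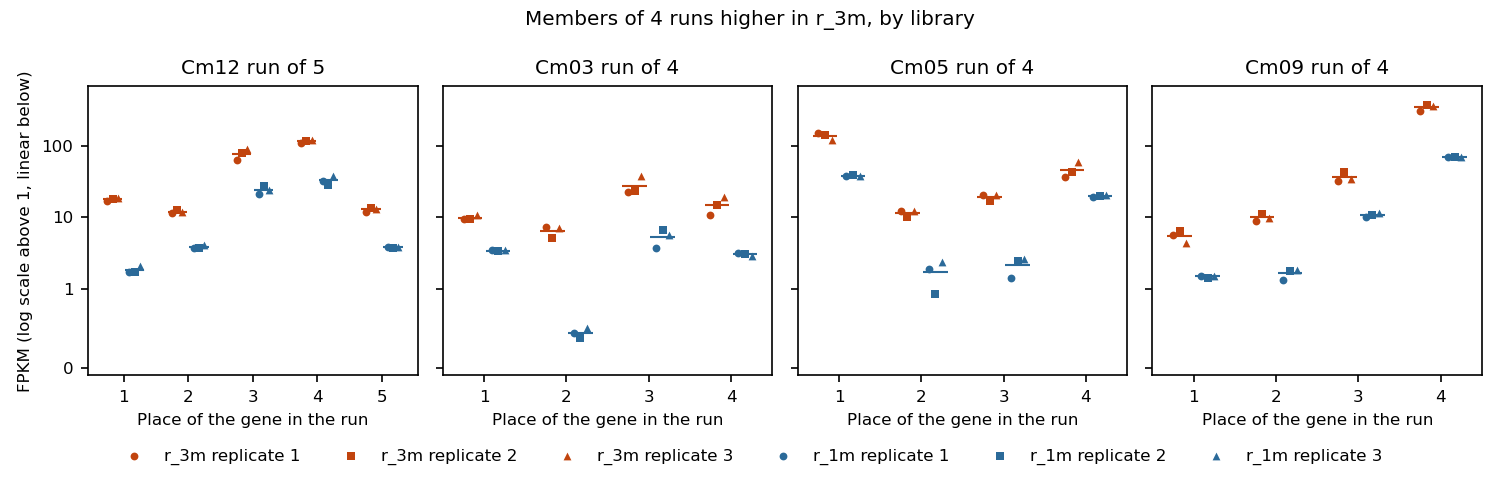
FPKM of each member (vertical axis, logarithmic above 1 and linear below) by its place in the run (horizontal axis), for 4 runs higher in r_3m. Points are single libraries and bars group means, with r_3m left of r_1m at each place; no r_3m point lies at or below an r_1m point of the same gene.

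The other 2 higher runs, a Cm02 and a Cm04 run of 4 genes each, were weakly expressed. Their 8 members averaged between 2.86 and 27.3 FPKM in r_3m and between 0.350 and 8.08 FPKM in r_1m. Log2 differences ran from 1.18 to 2.23. Over all 25 members of the higher runs the median log2 difference was 1.80, against 1.53 over the 2181 eligible higher genes outside runs. The median mean level was 9.04 FPKM for the members and 14.2 FPKM for those others.

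The longest run of all was 6 Cm12 genes lower in r_3m, and the reduction went on past its end. Added up, the 6 genes had 214, 299 and 347 FPKM in r_3m replicates 1, 2 and 3, against 1235, 1204 and 1160.0 FPKM in r_1m replicates 1, 2 and 3. The first gene showed the largest difference of the run, -2.76. It had 22.7, 33.6 and 45.4 FPKM in r_3m, against 244, 232 and 229 FPKM in r_1m. The sixth gene was the most strongly expressed, with 50.8, 87.5 and 101 FPKM in r_3m, against 321, 315 and 308 FPKM in r_1m. The fifth was close to it, at 74.0 ± 10.4 FPKM in r_3m and 299.7 ± 7.90 FPKM in r_1m (SD, n = 3 each). Only the fourth stood well below the rest, at 7.89 ± 1.39 FPKM in r_3m and 31.4 ± 1.60 FPKM in r_1m. The second and the third averaged 56.0 ± 12.2 and 34.9 ± 7.03 FPKM in r_3m, against 164.5 ± 3.35 and 154 ± 12.6 FPKM in r_1m. Apart from the fourth, mean levels over the libraries lay between 94.6 and 197 FPKM.

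The IDs after this Cm12 run continued in the same direction. The next ID was below 1 FPKM on average in both groups. The 4 IDs that followed it differed by -1.60, -1.76, -1.66 and -2.15 on the log2 scale. Among them, the strongest had 144, 143 and 234 FPKM in r_3m, against 602, 586 and 591 FPKM in r_1m. It was left out of the members by the limit of 500 FPKM alone, and its absence split these 4 genes into pieces too short to count. Of 11 consecutive IDs, 10 were therefore lower in r_3m by more than 1 on the log2 scale. The ID just before the run differed by -0.91.

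Replicates of r_3m kept the same order through this Cm12 run. In 5 of the 6 genes replicate 1 was lowest, replicate 2 intermediate and replicate 3 highest. The fourth gene had 7.09, 7.08 and 9.50 FPKM in r_3m replicates 1, 2 and 3, so its lowest libraries were nearly equal. The rule did not use the order of replicates within a group. Over all tested genes, 24.1% had this order, as did 24.5% of the eligible lower genes and 21 of the 91 members. Replicate 1 was also the library of lowest relative depth, 63.9%, whose part in the order was not tested.

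A Cm04 run of 5 genes held the member with the largest reduction, Cm04G02461.gene, in first place. Cm04G02461.gene had 24.6, 21.1 and 17.5 FPKM in r_3m replicates 1, 2 and 3, against 285, 269 and 267 FPKM in r_1m replicates 1, 2 and 3. Its log2 difference was -3.64 (limma estimate -3.65, standard error 0.12). The third gene was reduced almost as much and was the most strongly expressed of the run. It had 45.9, 34.7 and 15.5 FPKM in r_3m, against 339.7, 337 and 325 FPKM in r_1m, a difference of -3.34. The second had 14.6, 9.31 and 3.15 FPKM in r_3m, against 39.8, 41.7 and 38.8 FPKM in r_1m. The fourth averaged 27.8 ± 6.36 FPKM in r_3m and 153 ± 5.20 FPKM in r_1m, and the fifth 9.30 ± 1.53 FPKM in r_3m and 21.6 ± 1.06 FPKM in r_1m (SD, n = 3 each). Replicate 3 was the lowest r_3m library in the first 4 of these genes, the opposite of the Cm12 run of 6. Both flanking IDs were below 1 FPKM on average, so the run stood between weakly expressed IDs.

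The Cm02 run of 4 genes lower in r_3m held the most strongly expressed member of all, Cm02G03132.gene, in second place. Cm02G03132.gene had 89.4, 93.1 and 84.1 FPKM in r_3m replicates 1, 2 and 3, against 431, 445 and 432 FPKM in r_1m replicates 1, 2 and 3. Its log2 difference was -2.28 (limma estimate -2.28, standard error 0.06). The genes beside it were shifted less. The first averaged 59.4 ± 13.6 FPKM in r_3m and 129 ± 1.32 FPKM in r_1m, and the third 53.0 ± 21.9 FPKM in r_3m and 142 ± 2.84 FPKM in r_1m (SD, n = 3 each). The fourth was the lowest, at 13.9 ± 1.39 FPKM in r_3m and 78.1 ± 1.79 FPKM in r_1m. The 3 other genes of the run were highest in r_3m replicate 3, whereas Cm02G03132.gene was lowest there. Both flanking IDs were expressed and nearly even between the groups, with differences of -0.23 and -0.01.

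A Cm08 run of 5 genes, the last of 3 under this prefix, mixed strong and weak genes. In this run the fourth gene had 13.2, 15.5 and 24.0 FPKM in r_3m, against 123, 126 and 126 FPKM in r_1m. The first was listed at 0 in r_3m replicate 1 and had 0.66 and 0.31 FPKM in replicates 2 and 3, against 5.27, 5.70 and 7.09 FPKM in r_1m. Such low values rest on few fragments, whose number was not recovered here. The fifth gene showed the largest difference of the run, -2.81, with 3.37 ± 0.469 FPKM in r_3m and 29.7 ± 2.20 FPKM in r_1m (SD, n = 3 each). The second and the third averaged 8.16 ± 1.69 and 2.85 ± 0.383 FPKM in r_3m, against 30.9 ± 0.217 and 17.7 ± 1.35 FPKM in r_1m.

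**Figure D3:**
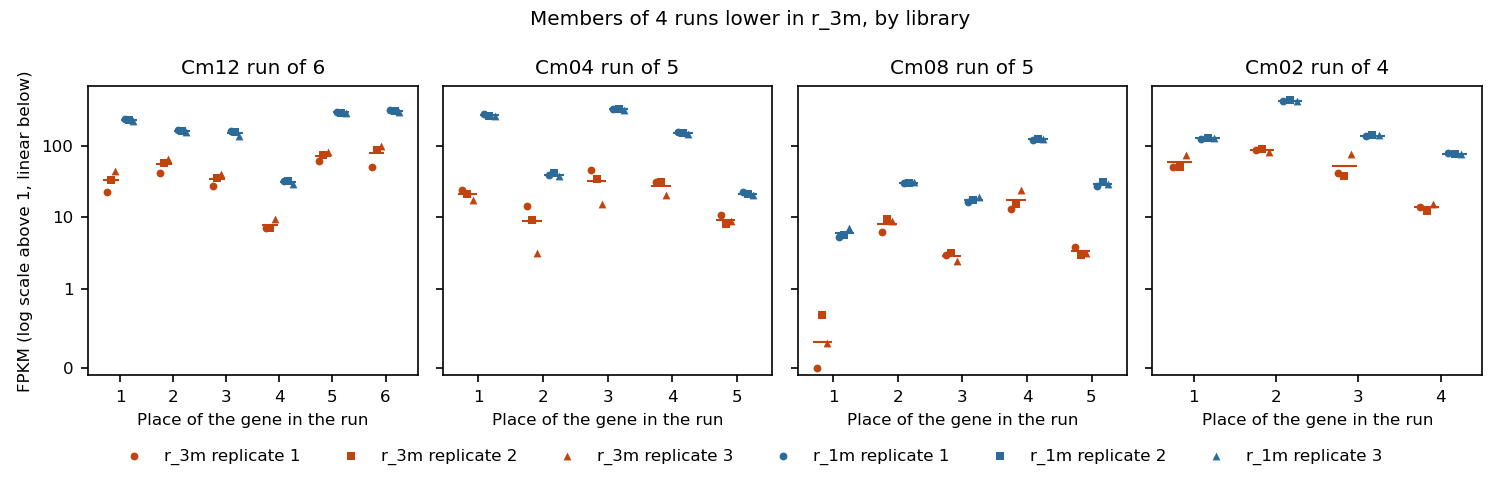
FPKM of each member (vertical axis, logarithmic above 1 and linear below) by its place in the run (horizontal axis), for 4 runs lower in r_3m. Points are single libraries and bars group means, with r_3m left of r_1m at each place; in the Cm12 run the r_3m triangles (replicate 3) lie above the circles (replicate 1) in all 6 genes, and in all 5 genes of the Cm04 run below them.

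The other 11 lower runs held 46 members, averaging between 0.0867 and 60.5 FPKM in r_3m and between 2.40 and 267 FPKM in r_1m. Their log2 differences ran from -3.27 to -1.04, with a median of -1.67. A Cm01 run ended with a pair of genes at almost the same level, 57.4 ± 9.33 and 60.5 ± 11.0 FPKM in r_3m, against 267 ± 7.70 and 264 ± 1.84 FPKM in r_1m (SD, n = 3 each). A Cm08 run and a Cm11 run were weakly expressed throughout. Members of that Cm08 run averaged at most 1.05 FPKM in r_3m and 8.58 FPKM in r_1m, and those of the Cm11 run at most 1.45 FPKM in r_3m and 10.9 FPKM in r_1m. These runs were singled out after their values were seen. Over all 66 members of the lower runs the median log2 difference was -1.98, against -1.54 over the 2836 eligible lower genes outside runs. The median mean level was 19.5 FPKM for the members and 9.82 FPKM for those others. A library was listed at 0 in 5 of the 66 members, always an r_3m library.

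Genes of one run, alike in direction by the rule, differed in level and in the size of the difference. The highest member of a run exceeded its lowest by 2.47 to 61.3 times in mean FPKM over the libraries, and by at least 10 times in 3 of the 6 higher and 8 of the 15 lower runs. Mean levels of adjacent members differed by a median of 1.58 on the log2 scale over 70 pairs, against 1.85 over all 13713 pairs of consecutive tested IDs. Log2 differences within a run spread by 0.68 to 1.53 in the higher runs and by 0.44 to 2.50 in the lower runs.

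By the rule a run ends at an ID that is not eligible in its direction. Of the 42 IDs directly beside a run, 21 (50.0%) averaged under 1 FPKM, among them 3 at 0 in every library, against 43.9% of all IDs that were not eligible and higher, and 44.9% of all that were not eligible and lower. Another 15 were shifted in the direction of the run by less than 1 on the log2 scale and 4 the opposite way by less than 1. Only 2 were shifted the opposite way by at least 1, one before a Cm01 run, at 1.01, and one before a Cm09 run, at 1.36. With the limit lowered to 1.5-fold, 5 of the 21 runs grew longer, to at most 7 genes. A little farther out, at 2 to 10 IDs from the higher runs, 17 of 64 tested genes (26.6%) were eligible and higher in r_3m, against 11.0% of all tested genes. Without the Cm09 run, which supplied 5 of the 17, the share was 23.5% of 51. The Cm03 run supplied another 5 of the 17, from 14 tested genes. Around the lower runs, 31 of 183 tested genes (16.9%) were eligible and lower in r_3m, against 14.5% of all tested genes. The Cm12 run of 6 supplied 6 of these 31, and without it the share was 14.6%.

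**Figure D4:**
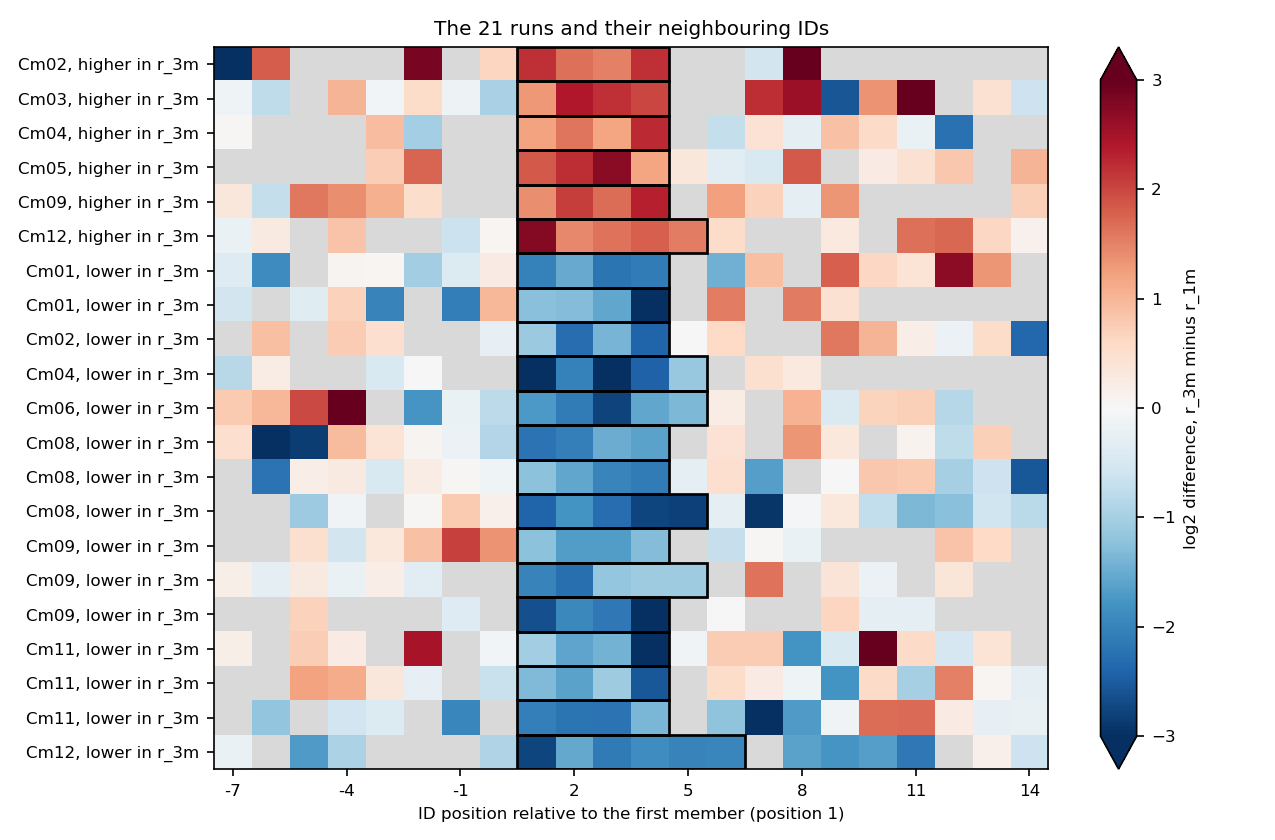
Log2 difference (colour, r_3m minus r_1m; values beyond 3 in size are drawn as 3) of the 21 runs, boxed, and the IDs around them, 1 run per line, by ID position counted from the first member (horizontal axis). Grey positions averaged under 1 FPKM; most boxes end against grey or pale positions, and the bottom line, the Cm12 run of 6, continues in blue after 1 grey position.

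Replicate fluctuations were also compared between members. The rule used only the group means, but these come from the same libraries. Whether that choice of members affects the comparison was not tested. For each gene the deviation of every library from its group mean was taken on the log2(FPKM + 1) scale, and deviations of adjacent members were correlated over 70 pairs and 3 libraries. Among the r_3m libraries the correlation was 0.36 for adjacent members and 0.32 for members 2 or more IDs apart in a run (85 pairs). It was 0.12 over the 13713 pairs of consecutive tested IDs, and -0.03 over 2290 pairs of members from different runs of the same direction. Consecutive eligible genes outside the runs that shared a direction gave 0.21 (657 pairs). All consecutive eligible genes of opposite directions, 2 of these pairs at the edge of a run, also gave 0.21 (304 pairs). The pairs share libraries, and a gene can be in several pairs, so these correlations are descriptions.

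Among the r_1m libraries, whose spread was smaller, adjacent members gave a correlation of -0.15 and members 2 or more IDs apart 0.26, with 0.02 over all consecutive tested IDs. Where both genes averaged at least 5 FPKM, these were 0.02 over 45 adjacent pairs and 0.23 over 60 pairs farther apart. The value for those adjacent pairs was too small for its sign to be read, and was -0.0036 without the Cm12 run of 6. In r_3m the correlation of adjacent members depended on level. It was 0.52 over the 45 pairs in which both genes averaged at least 5 FPKM, against 0.14 over 8158 consecutive pairs of that level, and 0.40 over the 41 such pairs left without the Cm04 run of 5. That Cm04 run weighed most on the value over all pairs, which was 0.25 without it (66 pairs) and 0.33 without the Cm12 run of 6 (65 pairs). With a pseudocount of 0.1, which gives weak genes more weight, it was 0.14 over all 70 pairs.

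The highest r_3m library was the same for both genes in 33 of the 70 adjacent pairs (47.1%), against 36.9% of all consecutive tested IDs. In r_1m it was the same in 23 of the 70 (32.9%), against 34.3%. For consecutive eligible genes of one direction outside the runs (657 pairs), the shares were 41.2% in r_3m and 34.4% in r_1m. For members 2 or more IDs apart in a run (85 pairs), they were 47.1% in r_3m and 45.9% in r_1m. All members had the same highest r_3m library in 2 of the 21 runs, the Cm12 run of 6 (replicate 3) and the higher Cm09 run (replicate 2). In r_1m this held for 0 of the 21 runs. Of all 6728 windows of 4 consecutive tested IDs, 5.53% had the same highest library in r_3m and 4.15% in r_1m. Of the 28 windows of 4 members within runs, 4 did in r_3m (14.3%), mostly in the Cm12 run of 6, and 0 in r_1m. Within single runs, the correlation over all pairs of members in r_3m ran from -0.18 in the higher Cm02 run to 0.81 in the Cm12 run of 6.

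**Figure D5:**
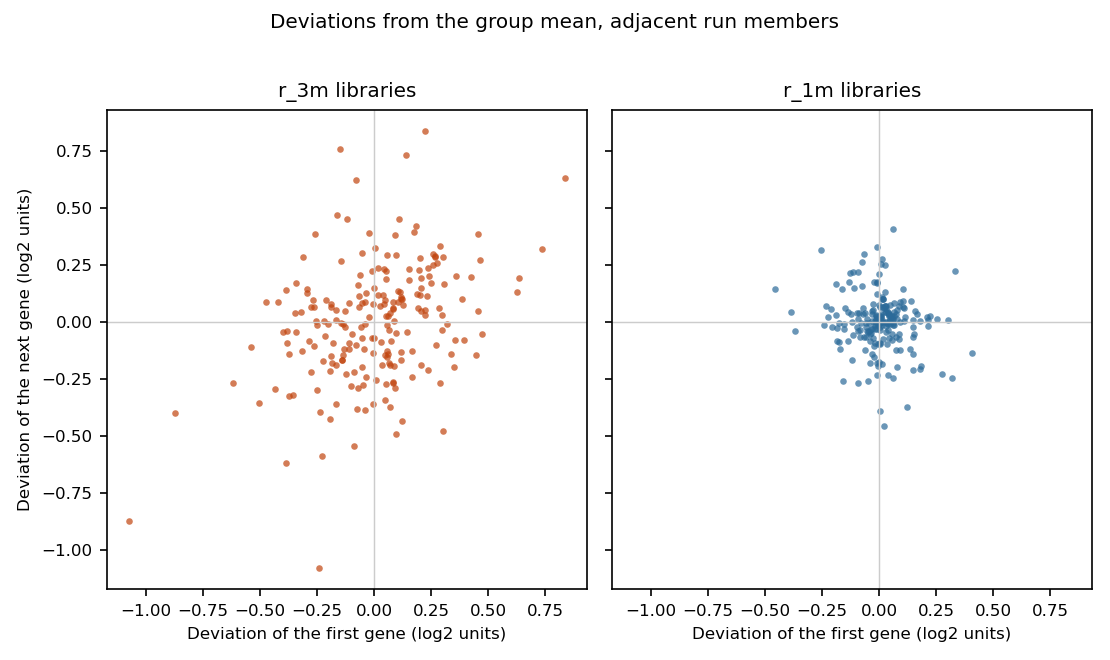
Deviation from the group mean, in log2(FPKM + 1) units, of a run member (horizontal axis) and of the next member (vertical axis), 1 point per pair and library, for the r_3m (left) and r_1m (right) libraries. The r_3m points spread along the rising diagonal (correlation 0.36), and the r_1m points lie closer to 0 with no such direction (-0.15).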

How the data were processed

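The authors deposited FPKM values, given to 2 decimals, for 33991 gene IDs. Per the submitters' processing notes, FastQC 0.11.9, Trimmomatic and STAR 2.7.10b were used. Not given in the sources used here are the counter, genome build, annotation and treatment of multi-mapping reads. Absolute depth is unknown. Columns were matched to samples by the run number that opens each title, and 207 other columns were not used. Replicates were numbered in record order.

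Runs were found with pandas 2.3.3 by the rule in the report. The members and lists were chosen with earlier results of these data known. The whole table was fitted with limma 3.58.1 in R 4.3.3 (log2(FPKM + 1), mean of at least 1 FPKM, variance trend, two-sided, Benjamini-Hochberg adjustment, threshold 0.05). Run finder and fit were tested on simulated data. Genes printed by ID were, per direction, the member with the largest difference among those with at least 10 FPKM in the higher group, and the member of highest mean. Runs described gene by gene were the 3 longest per direction, ties going to the larger median difference, and those holding these genes. Lists by product name could not be run. Relative depths came from ratios of values between 0.1 and 0.6 FPKM.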

Additional observations from a re-analysis of the deposited data

How the results depend on the processing

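No member changed direction under any of the 12 alternatives tried for the runs. The groups did not overlap in any member, so little else was possible and nothing is read from it. The median-of-ratios scaling left all 21 runs as they were. On the TPM scale 20 of them stayed whole, among 8 higher runs with 33 members and 14 lower runs with 62. Without the upper limits there were 8 higher runs with 35 members and 18 lower runs with 79. A pseudocount of 0.1 gave 12 higher runs with 49 members, and 82 of the 91 members were found again. A minimum mean of 5 FPKM left 2 higher runs with 9 members and 9 lower runs with 40 members, since weak members no longer counted. Leaving out 1 library gave 6 to 9 higher runs with 25 to 38 members and 13 to 18 lower runs with 58 to 79 members, and found 78 to 91 of the members again. The higher runs were most affected by r_1m replicate 1, without which they held 38 genes; the cause was not tested. In r_3m, the correlation of deviations between adjacent members was 0.144 with a pseudocount of 0.1, 0.521 at 5 FPKM or more, and 0.289 to 0.429 without 1 library. In r_1m, where it was -0.15, it turned to 0.0189 at 5 FPKM or more and was -0.288 to -0.0298 without 1 library. Averaging the r_1m libraries as 1 sample, chosen after seeing the data, called 3424 genes higher and 3622 lower, against 6787 and 6732. Each of the 4 genes printed by ID kept its direction under all alternatives, which their selection on this same contrast all but fixed. No paired analysis was possible because r_3m and r_1m samples have no replicate number in common in their labels. Values near 0 rest on few fragments, so depth limits the differences of the weakest members most.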
